A study of Mus musculus with 12 samples.

Results

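The genes described here encode 10 acute phase plasma proteins of mouse liver: Saa1, Saa2, Saa3, Lcn2, Orm1, Orm2, Hp, Hpx, Apcs and Itih4. They were chosen by name, as secreted proteins of the acute phase response, with earlier results of these data known. They are 10 of the 53465 genes in a table of whole-liver RNA-seq read counts. The table holds 12 livers of C57BL/6N mice, with 4 labelled for each of 3 ages, although the series' own design text counts 3 per age. Livers labelled young came from mice of 3 months, those labelled middle by the study, here middle-aged, from mice of 12 months, and those labelled old, here aged, from mice of 18 months. All groups shared the strain and the tissue, the mice were male according to the study's methods, and no treatment was labelled. Gene counts ranged from 8124312 to 10527159 per liver.

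The acute phase response is the change in plasma proteins that follows infection, injury or inflammation. Macrophages release interleukin-6, interleukin-1 and tumor necrosis factor, and hepatocytes answer through STAT3, C/EBP factors and NF-kappaB by making more of some secreted proteins, called positive, and less of others, called negative. The serum amyloid A proteins are the most inducible in the mouse, and transcripts of this class are therefore widely used to read the inflammatory state of a liver. Values below are normalized counts, that is, read counts divided by a library size factor estimated by DESeq2. All fold changes come from DESeq2 fitted to the 12 livers together, and adjusted p-values are Benjamini-Hochberg values over all genes tested. A gene is said to have risen or fallen where its adjusted p was under 0.05.

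Hepatocytes, the source of most plasma proteins, were well represented in every library. All 8 hepatocyte markers on the list used were detected at a mean of at least 10, and summed, they reached 646447 to 741646 normalized counts per liver at 3 months, 721272 to 809031 at 12 months and 671604 to 940406 at 18 months. Since RNA was taken from whole liver, fewer hepatocytes and less RNA per hepatocyte cannot be told apart. One library stood apart in its shares of mitochondrial and spike-in counts. Young replicate 2 had 19.2% of its counts on mitochondrial genes against 5.48% to 10.7% in the others, and 10.6% of its counts on added spike-in RNAs against 1.59% to 6.23%. The calls of the members are therefore given with and without young replicate 2. Young replicate 3, with the lowest gene counts, had the most genes detected, at 22284 against 16361 to 19982 in the others.

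Against young livers, transcripts of the serum amyloid A proteins Saa1 and Saa2 and of Apcs were lower in middle-aged livers. The orosomucoid Orm1 was lower in both older groups and Orm2 in aged livers, whereas Itih4 was higher in aged livers. Of these calls, only those of Saa1 and Itih4 passed without young replicate 2. The hemoglobin and heme carriers Hp and Hpx passed in none of these age comparisons. Among aged against young livers, 3 of the 10 genes passed the test, with Orm1 and Orm2 lower and Itih4 higher, where 3.58% of all genes tested passed. Among middle-aged against young livers 4 of the 10 passed, Saa1, Saa2, Orm1 and Apcs, all lower, where 6.41% of all genes passed. No member passed between aged and middle-aged livers, where 1.14% of all genes did. In that last comparison 0 members had an unadjusted p under 0.05, and the edgeR quasi-likelihood test also called 0. In a likelihood ratio test across the 3 ages, Saa1, Saa2, Orm1, Orm2 and Itih4 passed, which is 5 of 10 against 6.96% of all genes. The median log2 fold change of the members was -0.32 in aged and -0.59 in middle-aged livers against young ones, beside -0.00030 and 0.0065 over all genes tested. Both comparisons use the same young livers, so they are not independent of each other. The members were chosen with earlier results of these data known, and their shares were not tested against those of all genes.

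Without young replicate 2, Itih4 was the 1 member that passed between aged and young livers, and Saa1 and Itih4 were the 2 that passed between middle-aged and young livers. The edgeR quasi-likelihood test on all 12 livers called 0 members between aged and young, with 5 at an unadjusted p under 0.05 in either tool, and Saa1 alone between middle-aged and young. Calls over the whole table fell as well. Without young replicate 2 they went from 484 to 258 genes in aged and from 727 to 349 in middle-aged livers against young ones. In edgeR they were 172 and 280. These directions are relative to the typical gene of each liver. Scaling by the spike-in RNAs in place of the genes moved the median of all genes by 1.21 in aged and 1.47 in middle-aged livers against young ones on the log2 scale. Relative to those medians every member kept its sign in both comparisons, while before that subtraction all but Saa1 and Saa2 were above 0, and Hp, Hpx, Apcs and Itih4 passed the test as higher in both older groups.

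**Figure D1:**
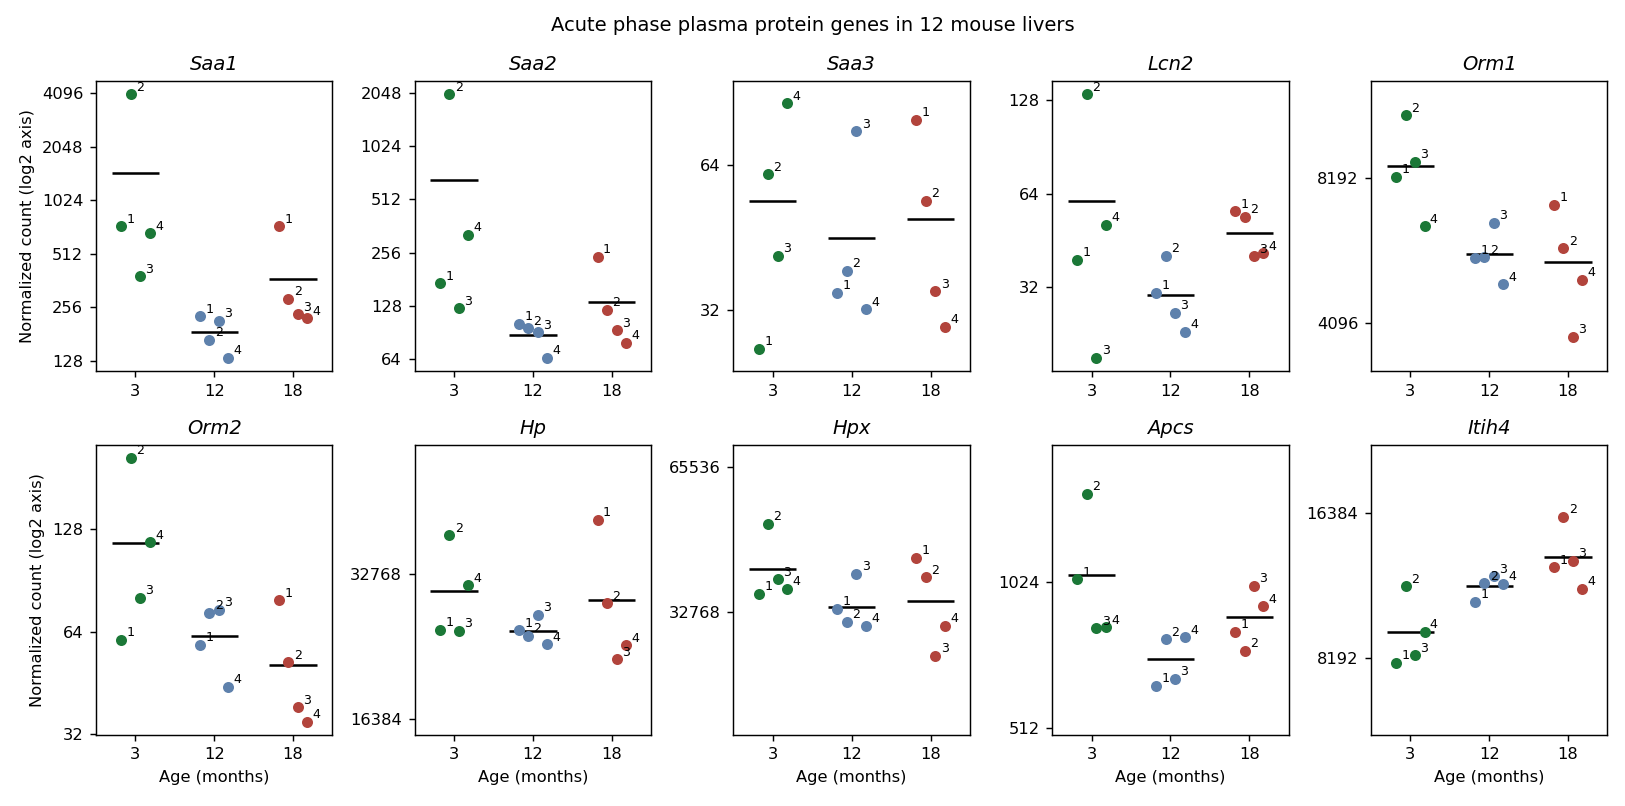
Normalized count of each gene (vertical axis, log2 scale) in each of 12 livers, by age in months (horizontal axis). Points are livers numbered by replicate and bars are group means. Young replicate 2 was the highest of all 12 livers for 7 of the 10 genes, and the 4 middle-aged livers lay close together for most of them.

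**Figure D2:**
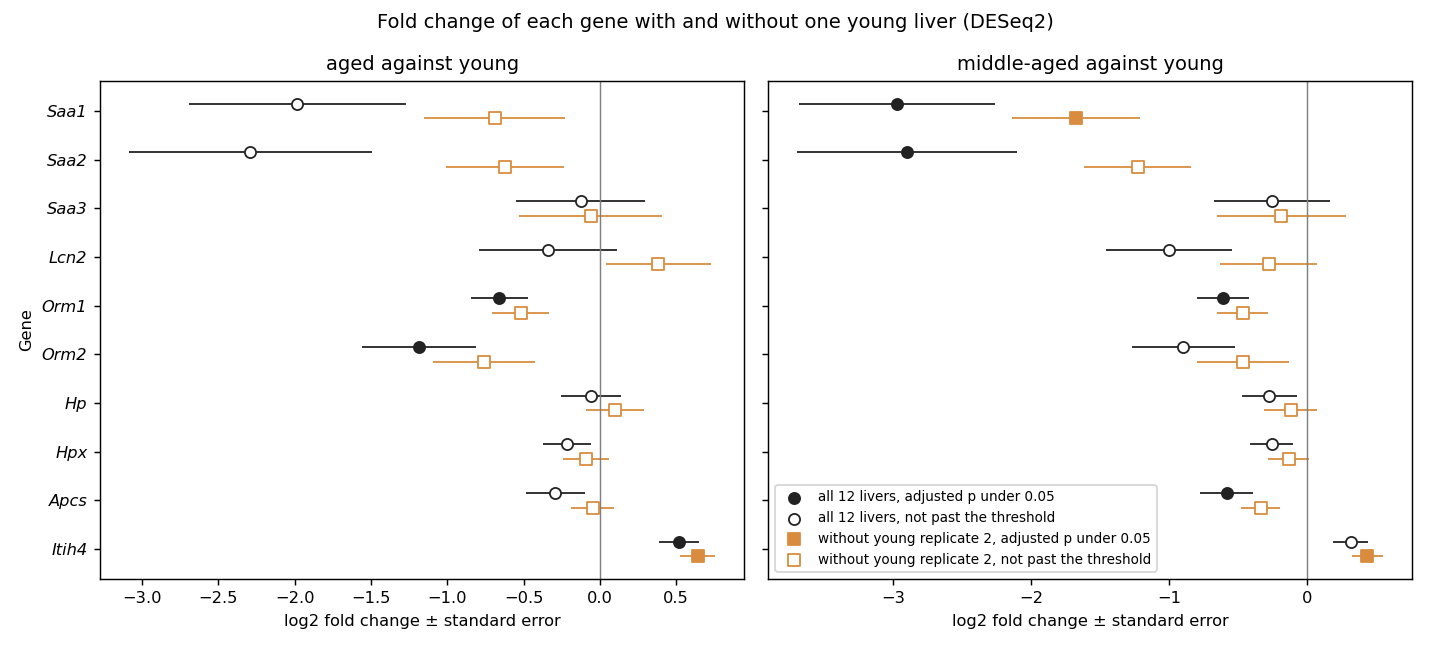
DESeq2 log2 fold change (horizontal axis) with its standard error for each gene (vertical axis), aged against young on the left and middle-aged against young on the right. Black circles use all 12 livers, orange squares leave out young replicate 2, and filled symbols had an adjusted p under 0.05. Leaving out that liver moved Saa1 between aged and young from -1.98 to -0.69 and left Itih4 past the threshold at 0.64.

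Serum amyloid A proteins are small apolipoproteins that ride on high-density lipoprotein. Saa1 and Saa2 are made chiefly by hepatocytes, whereas Saa3 is also made by macrophages and adipocytes. The genes lie in one cluster on chromosome 7 (GRCm38), with Saa3 (ENSMUSG00000040026) at 46711998 to 46715700 on the minus strand, Saa1 (ENSMUSG00000074115) at 46740497 to 46742980 on the minus strand and Saa2 (ENSMUSG00000057465) at 46751790 to 46754313 on the plus strand. Saa1 and Saa2 thus point away from each other across 8809 bases. Their promoter windows are nearly the same sequence, with 287 identical positions, 12 mismatches and 2 gap positions in a global alignment, or 95.3% identity. Saa3 matched Saa1 over 50.9% and Saa2 over 50.2% of aligned positions, and the other pairs of member windows ran from 44.9% to 52.5%. The windows below are RefSeq sequences on GRCm38.p6, read 5′ to 3′ along the gene from 250 bases before its start to 50 bases after it. They are shown because the levels of Saa1 and Saa2 moved together across livers, with Saa3 as another gene of the cluster and Orm2 as a member of another family that fell. Capitals mark matches to TTGCNNAA, a core of the C/EBP motif, on either strand.
Saa1 promoter, chr7:46742931-46743230, strand -: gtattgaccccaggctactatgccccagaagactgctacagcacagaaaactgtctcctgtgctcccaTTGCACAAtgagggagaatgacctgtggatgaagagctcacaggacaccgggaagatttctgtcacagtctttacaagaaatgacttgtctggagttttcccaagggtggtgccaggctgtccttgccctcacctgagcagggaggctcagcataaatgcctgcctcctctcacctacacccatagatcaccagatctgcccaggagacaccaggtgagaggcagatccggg
Saa2 promoter, chr7:46751583-46751882, strand +: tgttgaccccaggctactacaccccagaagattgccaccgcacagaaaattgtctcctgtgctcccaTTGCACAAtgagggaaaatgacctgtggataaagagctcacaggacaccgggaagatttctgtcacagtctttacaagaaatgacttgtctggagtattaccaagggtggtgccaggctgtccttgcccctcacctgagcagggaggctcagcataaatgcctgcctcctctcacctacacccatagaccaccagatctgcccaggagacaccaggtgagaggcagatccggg
Saa3 promoter, chr7:46715627-46715926, strand -: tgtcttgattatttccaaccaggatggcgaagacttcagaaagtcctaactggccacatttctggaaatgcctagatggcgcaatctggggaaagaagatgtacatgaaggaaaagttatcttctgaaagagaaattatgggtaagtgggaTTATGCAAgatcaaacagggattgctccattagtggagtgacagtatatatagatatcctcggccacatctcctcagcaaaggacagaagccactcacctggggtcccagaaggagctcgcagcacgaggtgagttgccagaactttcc
Orm2 promoter, chr4:63362199-63362498, strand +: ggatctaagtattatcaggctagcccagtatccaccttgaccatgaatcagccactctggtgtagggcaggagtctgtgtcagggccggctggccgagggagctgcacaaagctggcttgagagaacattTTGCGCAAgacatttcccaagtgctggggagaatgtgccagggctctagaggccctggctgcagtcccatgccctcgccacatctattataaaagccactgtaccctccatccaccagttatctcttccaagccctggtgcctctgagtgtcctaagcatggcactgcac

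The C/EBP core was found in 6 of the 8 member windows with a RefSeq entry and in 10.8% of all 32851 windows. Counting the start as 0, it began at -182 in Saa1 and at -183 in Saa2, where both hold TTGCACAA, at -99 in Saa3 on the opposite strand and at -120 in Orm2 as TTGCGCAA. Lcn2 held it at -216 and Hpx at -200. The STAT core TTCNNNGAA was in the windows of Apcs, at -244, and Itih4, at -51, against 8.30% of all windows. The NF-kappaB core GGGANNNNCC was in 0 of the 8 and in 20.7% of all windows. Such matches describe letters in a window and were not tested as binding sites. Hp and Orm1 had no window in the table used.

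Saa1 was the more abundant of the pair. In young livers it stood at 729, 4033, 382 and 664 normalized counts in replicates 1 to 4. In middle-aged livers it stood at 227, 167, 215 and 132, and in aged livers at 729, 285, 232 and 222. All middle-aged livers lay below all young ones, whereas aged replicate 1 reached the level of young replicate 1 and the other aged livers lay below every young liver. The group means were 1452 ± 1728, 185 ± 43.9 and 367 ± 243 (SD, n = 4 each). Saa1 fell between young and middle-aged livers, with a log2 fold change of -2.97 ± 0.71 (SE) and an adjusted p of 0.0021, which is 7.83-fold lower. Between young and aged livers the log2 fold change was -1.98 ± 0.71 and the adjusted p 0.094. Leaving out young replicate 2 gave -1.67 (adjusted p = 0.019) in middle-aged and -0.69 (adjusted p = 0.64) in aged livers. Without aged replicate 1 the aged value was -2.56 with an adjusted p of 0.0090.

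Saa2 was also highest in young replicate 2 and lowest in middle-aged replicate 4. It stood at 172, 2014, 124 and 323 in young livers, at 101, 96.1, 91.0 and 65.2 in middle-aged livers and at 243, 122, 93.5 and 79.6 in aged livers. The middle-aged livers again lay below every young one, and aged replicate 1 overlapped with young livers. It fell between young and middle-aged livers by 2.90 ± 0.80 (SE) on the log2 scale (adjusted p = 0.0097), and the value in aged livers was -2.29 ± 0.79 with an adjusted p of 0.082. Leaving out young replicate 2 turned these into -1.23 (adjusted p = 0.052) and -0.62 (adjusted p = 0.59), so neither passed. The ratio of Saa1 to Saa2 counts lay between 1.74 in middle-aged replicate 2 and 4.24 in young replicate 1. At 2.003 in young replicate 2, where both genes were highest, it was within the range of the other livers. No stretch of 100 bases of the Saa1 or Saa2 mRNA was shared with another gene, so reads of that length over these transcripts can be assigned to 1 of them.

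Saa3 showed no such pattern. Its counts were 26.5, 61.1, 41.5 and 85.9 in young livers, 34.8, 38.6, 75.1 and 32.1 in middle-aged livers and 79.3, 53.9, 35.0 and 29.5 in aged livers. The groups overlapped throughout, and the log2 fold changes of -0.13 ± 0.42 in aged and -0.25 ± 0.42 in middle-aged livers (SE) had adjusted p-values of 0.93 and 0.79. Leaving out young replicate 2 gave -0.06 (adjusted p = 0.99) and -0.19 (adjusted p = 0.92). The highest middle-aged value, in replicate 3, came from the liver with the highest adipocyte marker level. All 5 adipocyte markers, which include adiponectin (Adipoq) and perilipin 1 (Plin1), were highest there among the 12 livers. Their summed level was 560 normalized counts in that liver against 3.01 to 16.2 in the other middle-aged livers, 1.27 to 64.0 in young and 0.963 to 16.6 in aged livers. Adipoq was at 0 in 8 livers. Saa3 was higher still in young replicate 4 and aged replicate 1, where the adipocyte sum was 6.83 and 3.01. Of 8 lymphocyte markers, 6 were also highest in middle-aged replicate 3. The part of adipocytes or lymphocytes in the Saa3 value was not tested.

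Lipocalin 2 (Lcn2, ENSMUSG00000026822, chromosome 2) binds bacterial siderophores and so withholds iron. Orosomucoids are abundant plasma glycoproteins that carry small molecules. Lcn2 stood at 39.3, 134, 19.0 and 50.8 normalized counts in young livers, at 30.8, 40.4, 26.5 and 23.1 in middle-aged livers and at 56.2, 53.9, 40.2 and 41.1 in aged livers. One young liver, replicate 2, was above all others and another, replicate 3, below all others, so the young group spanned the whole range. The log2 fold changes were -0.34 ± 0.45 in aged and -1.001 ± 0.46 in middle-aged livers (SE), with adjusted p-values of 0.80 and 0.17. The aged value without young replicate 2 was 0.38, of opposite sign, with an adjusted p of 0.77.

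Orm1 (ENSMUSG00000039196) and Orm2 (ENSMUSG00000061540) lie 14285 bases apart on the plus strand of chromosome 4, at 63344560 to 63348163 and at 63362449 to 63365878 (GRCm38). Orm1 was one of the most abundant members. It stood at 8217, 11028, 8820 and 6490 in young livers, at 5577, 5600, 6593 and 4920 in middle-aged livers and at 7185, 5846, 3826 and 5026 in aged livers. The overlap was slight, since 3 of the 4 young livers were above all middle-aged and aged ones. Orm1 fell in both older groups, by 0.61 ± 0.19 in middle-aged (adjusted p = 0.028) and by 0.66 ± 0.19 in aged livers (adjusted p = 0.021), on the log2 scale with SE. These are 1.52-fold and 1.58-fold lower levels. The sizes without young replicate 2 were -0.47 (adjusted p = 0.18) and -0.52 (adjusted p = 0.15), and with spike-in scaling both were above 0.

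Orm2 stood at 60.5, 208, 80.6 and 117 in young livers, at 58.6, 72.7, 74.2 and 44.1 in middle-aged livers and at 79.3, 52.0, 38.5 and 34.9 in aged livers. All 3 aged livers other than replicate 1 were below every young liver. Its log2 fold change was -1.19 ± 0.37 in aged livers (SE, adjusted p = 0.044), 2.28-fold lower, and -0.90 ± 0.37 in middle-aged livers (adjusted p = 0.12). The aged call was lost without young replicate 2, at -0.76 and an adjusted p of 0.32. The Orm1 and Orm2 mRNAs share 47 of 676 stretches of 100 bases, or 6.95%. With Orm1 counts 53.1 to 144 times those of Orm2, some Orm2 reads may belong to Orm1, depending on how reads with several matches were counted, which was not tested.

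Haptoglobin (Hp, ENSMUSG00000031722, chromosome 8) binds free hemoglobin, and hemopexin (Hpx, ENSMUSG00000030895, chromosome 7) binds free heme. Per length of mRNA they were the highest of the 10 genes at every age. Hp stood at 25100, 39377, 25002 and 31033 in young livers, at 25010, 24369, 26985 and 23416 in middle-aged livers and at 42400, 28476, 21772 and 23302 in aged livers. Young replicate 2 and aged replicate 1 were the highest livers of all. The remaining 10 livers lay between 21772 and 31033. The log2 fold change was -0.06 ± 0.20 in aged and -0.27 ± 0.20 in middle-aged livers (SE), with adjusted p-values of 0.94 and 0.44. They were 0.0997 (adjusted p = 0.93) and -0.12 (adjusted p = 0.86) without young replicate 2.

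Hpx stood at 35824, 50008, 38334 and 36681 in young livers, at 33299, 31281, 39378 and 30742 in middle-aged livers and at 42462, 38741, 26622 and 30723 in aged livers. The same pair of livers was highest. Its log2 fold changes were -0.22 ± 0.16 in aged and -0.26 ± 0.16 in middle-aged livers (SE), with adjusted p-values of 0.55 and 0.34. Leaving out that young liver gave -0.09 (adjusted p = 0.91) and -0.13 (adjusted p = 0.77). For neither Hp nor Hpx was a difference between ages detected beyond the spread between livers with counts scaled by the genes. Cd163, the macrophage receptor for haptoglobin with hemoglobin, had log2 fold changes of -0.05 in aged and -0.01 in middle-aged livers. Lrp1, the receptor for hemopexin with heme, rose by 0.43 ± 0.13 in middle-aged livers (SE, adjusted p = 0.018, or 0.11 without young replicate 2).

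Serum amyloid P (Apcs, ENSMUSG00000026542, chromosome 1) is a pentraxin that binds amyloid fibrils and chromatin. It stood at 1039, 1564, 822 and 826 in young livers, at 626, 780, 646 and 788 in middle-aged livers and at 808, 740, 1007 and 914 in aged livers. All middle-aged livers were below all young ones. With Saa1 and Saa2 it was one of 3 members whose young and middle-aged livers did not overlap, where 16.0% of all genes tested showed no overlap. Between aged and young livers, 0 of the 10 members were without overlap, against 7.53% of all genes. Apcs fell in middle-aged livers by 0.58 ± 0.19 on the log2 scale (SE, adjusted p = 0.042), and the aged value was -0.29 ± 0.19 with an adjusted p of 0.50. The middle-aged value without young replicate 2 was -0.34 with an adjusted p of 0.22.

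Itih4 (ENSMUSG00000021922), on chromosome 14 at 30886476 to 30902353 on the plus strand, encodes a heavy chain of the inter-alpha-trypsin inhibitor family and moved opposite to the others. It stood at 8013, 11553, 8315 and 9304 in young livers, at 10719, 11723, 12125 and 11704 in middle-aged livers and at 12643, 16126, 13057 and 11428 in aged livers. Young replicate 2 was the only young liver within the range of the older groups. Itih4 rose in aged livers by 0.52 ± 0.13 on the log2 scale (SE, adjusted p = 0.0048), 1.43-fold, and its middle-aged value was 0.32 ± 0.13 (adjusted p = 0.12). Without young replicate 2 both passed, at 0.64 (adjusted p = 1.37e-05) and 0.44 (adjusted p = 0.011). The edgeR test gave 0.52 for aged livers with an adjusted p of 0.068.

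Per kilobase of mRNA, using for each gene its longest protein-coding transcript with a consensus coding sequence, young livers ordered the genes as Hpx, Hp, Orm1, Itih4, Saa1, Apcs, Saa2, Orm2, Saa3 and Lcn2. The levels ran from 26826 ± 4412 for Hpx down to 66.3 ± 55.1 for Lcn2 (normalized counts per kilobase, SD, n = 4). By group SD, Hpx and Hp, at 22400 ± 5041, were within their spread of each other, as were Orm2 at 150 ± 84.0, Saa3 at 96.9 ± 46.3 and Lcn2. Compared liver by liver, Hpx was above Hp in each of the 4 young livers. Saa1, at 2384 ± 2837, was within its spread of Itih4 at 2633 ± 454, of Apcs at 1095 ± 360 and of Saa2 at 1010 ± 1392. Within every liver, however, Saa1 was above Saa2, with a ratio of counts from 1.74 to 4.24. Without young replicate 2, Saa1 was at 971 ± 303, Apcs at 923 ± 128 and Saa2 at 317 ± 159 (n = 3), and Saa1 and Apcs could still not be ordered. In middle-aged livers Saa1 was at 304 ± 72.0 and Apcs at 731 ± 88.7, a difference larger than their spread. In aged livers they were at 603 ± 399 and 893 ± 121, within their spread of each other.

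The members differed in how evenly they were expressed among livers of 1 age. The pooled within-age SD of log2(normalized count + 1) was 1.12 for Saa2, 0.99 for Saa1, 0.70 for Lcn2, 0.63 for Saa3 and 0.57 for Orm2. At least 96.8% of the 8888 genes with a mean of at least 50 had a smaller SD than any of these. Those 8888 genes cover all levels from 50 up, whereas Lcn2 and Saa3 themselves had means just under 50. Counting noise is larger at low counts, and the members were not compared with genes of similar level alone. It was 0.31 for Hp, 0.30 for Orm1, 0.29 for Apcs, 0.24 for Hpx and 0.19 for Itih4, beside a median of 0.19 over those 8888 genes. The median over the members was 0.44. Within each age, the SD for Saa1 was 1.47 at 3 months, 0.36 at 12 months and 0.80 at 18 months, and for Saa2 it was 1.79, 0.28 and 0.71. Without young replicate 2 the young values were 0.50 for Saa1 and 0.70 for Saa2, which are not above the aged ones.

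**Figure D3:**
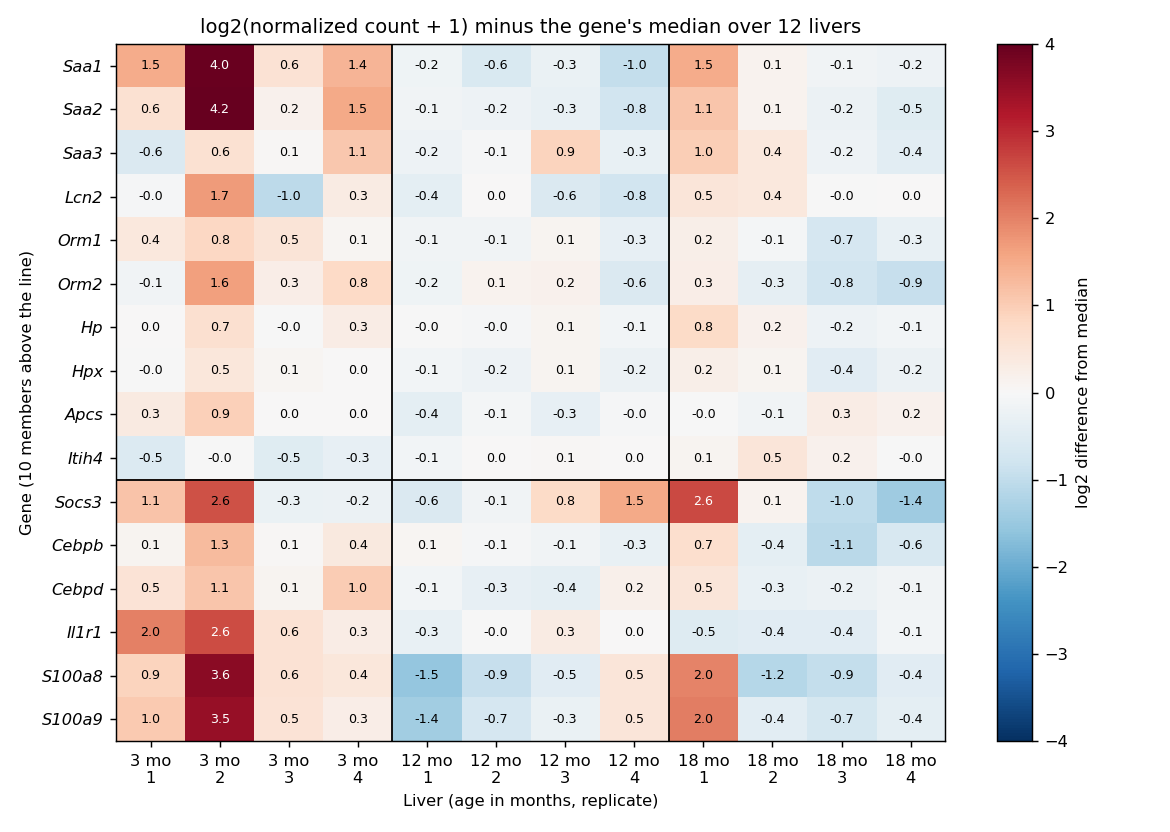
Each cell is log2(normalized count + 1) of a gene (rows) in a liver (columns, by age in months and replicate) minus that gene's median over the 12 livers. Rows under the line are 4 signaling genes and 2 neutrophil markers. Young replicate 2 and aged replicate 1 are high across most rows, while Itih4 is low in the 3 other young livers.

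The livers high in one member tended to be high in others. Young replicate 2 had the highest count among young livers for 9 of the 10 genes, all but Saa3. Aged replicate 1 had the highest count among aged livers for 8 of the 10, all but Apcs and Itih4. Relative to the mean of the other 3 young livers, young replicate 2 was 9.75 times higher for Saa2, 6.82 times for Saa1, 3.68 times for Lcn2, 2.41 times for Orm2 and 1.35 times for Itih4. Aged replicate 1 against the other 3 aged livers was 2.96 times higher for Saa1, 2.47 times for Saa2, 2.01 times for Saa3, 1.898 times for Orm2 and 1.73 times for Hp.

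Of 45 pairs of members, 38 had a positive Pearson r across the 12 livers, and 24 pairs passed a two-sided permutation test of r after Benjamini-Hochberg adjustment over the pairs. With Spearman's rho 14 pairs passed. Saa1 and Saa2 were the closest pair, with r = 0.97 (permutation p = 1e-05, the smallest that 100000 permutations can give, adjusted p = 0.00045) and rho = 0.91 (permutation p = 0.0001, adjusted p = 0.0036). Without the 2 livers farthest from the median of Saa1, r was 0.95, and over deviations from the age means it was 0.96. Hp and Hpx had r = 0.85 (permutation p = 8e-05, adjusted p = 0.0018) and rho = 0.91 (permutation p = 0.00016, adjusted p = 0.0036). Their r was 0.79 without the 2 farthest livers and 0.87 within ages. Orm1 and Hpx, members of different families, had r = 0.88 (permutation p = 0.00028, adjusted p = 0.0034) and rho = 0.84 (permutation p = 0.00098, adjusted p = 0.015), with r = 0.69 without the 2 farthest livers and 0.92 within ages. Much of the rest rested on 1 liver. Without young replicate 2 only 4 pairs passed, Saa1 with Saa2, Saa3 with Hp, Orm1 with Hpx and Hp with Hpx, and the median r over all pairs went from 0.64 to 0.40.

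**Figure D4:**
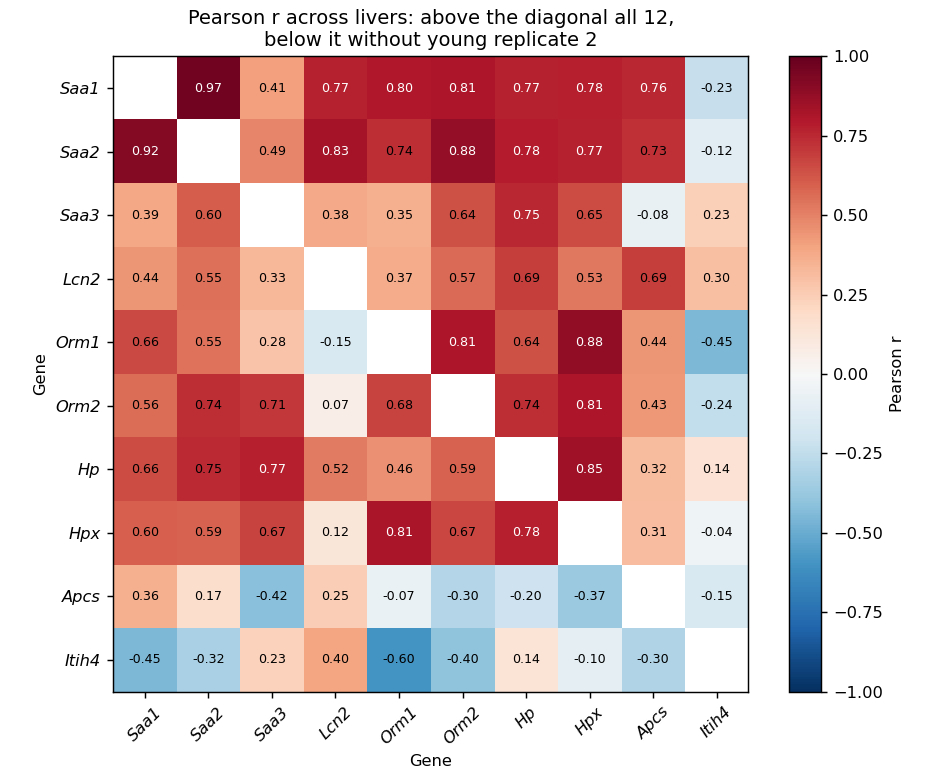
Pearson r between pairs of genes across livers, on log2(normalized count + 1), with gene names on both axes. Values above the diagonal use all 12 livers and values below it leave out young replicate 2. Saa1 with Saa2 (0.97 and 0.92) and Hp with Hpx (0.85 and 0.78) are high on both sides, while Apcs with Saa2 goes from 0.73 to 0.17.

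The signaling genes upstream of these proteins gave a similar picture of single livers. Of the 8 cytokines listed, the interleukin-1 transcripts had the most counts. Interleukin-6 (Il6) had a normalized count of 1.06 in young replicate 1 and 0 in the other livers, and interleukin-1 beta (Il1b) was highest at 63.7 in young replicate 2 and 39.1 in aged replicate 1, against 7.11 to 22.5 elsewhere. Interleukin-1 alpha (Il1a) ranged from 10.6 to 31.1, with its highest value in aged replicate 1. Socs3, the feedback inhibitor that STAT3 induces, stood at 425 in young replicate 2 and 447 in aged replicate 1, and between 25.9 and 205.5 in the other livers. Cebpb, a C/EBP factor of the acute phase response, stood at 1710 and 1120 in the same livers and between 331 and 931 in the others. Stat3 itself ranged from 745 to 1186. None of Socs3, Cebpb or Stat3 passed the test at either age, with log2 fold changes in aged livers of -0.26, -0.77 and 0.01. Of the 23 signal transducers and transcription factors, 0 passed in aged livers in DESeq2 or edgeR, with 4 at an unadjusted p under 0.05 in each. In DESeq2, 3.58% of all genes tested passed there. In middle-aged livers Cebpd fell by 0.90 ± 0.27 (SE, adjusted p = 0.021, or 0.14 without young replicate 2) and the glucocorticoid receptor Nr3c1 rose by 0.39 ± 0.12 (adjusted p = 0.031, or 0.16 without that liver).

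Among the 10 receptors, Il1r1, the signaling receptor of interleukin-1, fell in both older groups. It stood at 521, 782, 191 and 155 in young livers and between 89.3 and 159 in the 8 older livers. All aged livers were below all young ones, and the middle-aged group overlapped the young one narrowly. The log2 fold change was -2.06 ± 0.39 in aged (SE, adjusted p = 4.58e-05) and -1.68 ± 0.39 in middle-aged livers (adjusted p = 0.0014). Without young replicate 2 both still passed, at -1.55 (adjusted p = 0.0015) and -1.17 (adjusted p = 0.033), and in edgeR the adjusted p-values were 0.027 and 0.044. With spike-in scaling neither did, at -0.76 (adjusted p = 0.15) and -0.085 (adjusted p = 0.88). Lifr, the leukemia inhibitory factor receptor, fell by 0.64 ± 0.19 in aged (SE, adjusted p = 0.025) and by 0.61 ± 0.19 in middle-aged livers (adjusted p = 0.024), with adjusted p-values of 0.062 and 0.062 without young replicate 2. Il6ra, the ligand-binding chain of the interleukin-6 receptor, had log2 fold changes of -0.54 and -0.61 with adjusted p-values of 0.32 and 0.17. The other 7 receptors did not pass.

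Other positive acute phase genes did not all follow the members. Of 25 listed, 23 had an adjusted p in aged against young livers, and 4 rose and 0 fell, where 3.58% of all genes tested passed. Ceruloplasmin (Cp), the copper-carrying ferroxidase, rose by 0.42 ± 0.08 (SE, adjusted p = 0.00013). Hepcidin (Hamp), the iron-regulating hormone, rose by 0.80 ± 0.23 (adjusted p = 0.020), Serpina3m by 0.59 ± 0.17 (adjusted p = 0.027) and the mannose-binding lectin Mbl2 by 0.32 ± 0.10 (adjusted p = 0.0496). Of these 4, Cp also passed in edgeR, and Cp, Hamp and Serpina3m passed without young replicate 2. Against that, 2 of 21 fell in middle-aged livers, where 6.41% of all genes tested passed. They were Saa4, the constitutive serum amyloid A of the same cluster, lower by 0.78 ± 0.24 (adjusted p = 0.029), and the fibrinogen chain Fgg, lower by 0.36 ± 0.12 (adjusted p = 0.036). Both missed the threshold without young replicate 2, and both were above 0 with spike-in scaling. Between aged and middle-aged livers Fga, another fibrinogen chain, rose by 0.48 ± 0.13 (adjusted p = 0.034), a call lost in edgeR (adjusted p = 0.23) and with spike-in scaling, where the value was 0.25. The median log2 fold change of the list was 0.10 in aged and -0.29 in middle-aged livers against young ones.

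Of the 10 negative acute phase genes listed, 1 passed in each older group against young livers. Of all genes tested, 3.58% passed in aged and 6.41% in middle-aged livers. The gene was Serpina6, which encodes the corticosteroid-binding globulin. It rose by 0.75 ± 0.18 in aged (SE, adjusted p = 0.0026) and by 0.85 ± 0.18 in middle-aged livers (adjusted p = 0.00026). It passed without young replicate 2 and in edgeR in both. The other 9 did not pass. In young replicate 2, Trf, Apom and Igf1 were highest of all livers, while Alb and Serpina6 were lowest. Albumin (Alb) had log2 fold changes of 0.31 and 0.16 with adjusted p-values of 0.084 and 0.38, and transthyretin (Ttr) of -0.09 and -0.08 with adjusted p-values of 0.72 and 0.68.

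Summed, neutrophil markers were high in the same pair of livers as the members, young replicate 2 and aged replicate 1. In young replicate 4, with the third highest mean standardized level of the members, they had the lowest sum among young livers. Their summed level over 10 genes was 355 normalized counts in young replicate 2 and 49.8 to 78.6 in the other young livers, 22.8 to 59.1 in middle-aged livers and 117 in aged replicate 1 against 31.8 to 38.5 in the other aged livers. Of the 10, 7 were highest in young replicate 2, among them S100a8 and S100a9, while 7 had a mean under 10, and Ngp, Camp, Mpo and Elane were at 0 in most livers. S100a8 and S100a9 were given no p by DESeq2, whose rule for outlying counts removed them. These genes made up most of the sum in aged replicate 1, at 33.12 and 52.19. Most other markers on the list did not set that liver clearly apart from the other aged livers. Csf3r was at 21.07 there against 8.939 to 20.97, and Retnlg at 4.014 against 0.9632 to 5.243. Ngp, Ltf and Mpo were at 0 there. Cxcr2, Elane and Camp were highest there among aged livers, at 4.014, 2.007 and 1.004. Kupffer cell and macrophage markers were highest in young replicate 2 for 8 of 10 genes. The scavenger receptor Marco, the only one of the 10 to pass, rose by 2.46 ± 0.69 in aged livers on the log2 scale (SE, adjusted p = 0.018). It stood at 791 in aged replicate 1 and from 96.1 to 261 in the other aged livers, against 36.7 to 79.1 in young ones. Its adjusted p was 0.075 in edgeR and 0.086 without young replicate 2, and its log2 fold change was 1.43 (adjusted p = 0.027) without aged replicate 1. Summed, they reached 3604 to 6485 normalized counts per liver at 3 months, 3155 to 4275 at 12 months and 3723 to 6214 at 18 months. The part of these cells in the members' levels was not tested.

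The genes outside the list whose profile over the 12 livers was most like that of the members were Ier2, Cks2, Pick1, Trf and Supt4a. Likeness was Pearson r with the mean of the members' standardized log2 values, among 8880 genes with a mean of at least 50, and all points share the same libraries. That mean was 1.89 in young replicate 2 and at most 0.74 in any other liver. Each of these genes was also highest in young replicate 2, and r without that liver was not computed. Ier2, an immediate early gene, had r = 0.93 and stood at 633 in young replicate 2 and 372 in aged replicate 1, against 179 to 341 in the others. The r values of Cks2, Pick1 and Supt4a were 0.92, 0.91 and 0.90. Trf, the iron carrier transferrin, is a secreted plasma protein and one of the negative acute phase genes listed above. It had r = 0.91 and stood at 12326 and 11347 in those livers and between 7570 and 9448 in the others.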

How the data were processed

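RNA-seq reads of 12 livers were counted per gene by the authors, and the deposited values are raw counts. The labels name STAR 2.5.2b, SAMtools 1.9, featureCounts and the builds mm10 and GRCm38. The study's text describes its own livers of young and old mice and a public data set of 3 ages, so how these libraries were prepared is not settled here. GENCODE M21 gave symbols for 53360 of 53465 genes. Counts of spike-in RNAs stayed out of all tests but one alternative. Gene counts ran from 8124312 to 10527159 per liver, and 3 counts correspond to 0.285 to 0.369 CPM, for counting error only.

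DESeq2 1.42.0 (R 4.3.3) was fitted to all livers with age as the only term, using Wald tests, a likelihood ratio test and default filters. Benjamini-Hochberg adjusted p under 0.05 was the threshold. Correlations used 100000 permutations (numpy 2.4.6), and promoter windows were aligned with Biopython 1.88. The scripts were tested on simulated data. Alternatives were edgeR 4.0.16, TMM factors, a filter of 10 counts in 4 livers, no filters, 2 ages alone, a replicate block, replicates 1 and 2 against 3 and 4 as a covariate or alone, spike-in scaling and leaving out each liver. Replicates 1 and 2 against 3 and 4 is a split by number, not a labelled batch.

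The members and gene lists were chosen with earlier results of these data known. Beyond the 10 members, the text names genes of the acute phase, receptor, signaling and partner lists with an adjusted p under 0.05 (up to 4 a list and comparison), 8 fixed genes (Socs3, Cebpb, Cebpd, Stat3, Il6ra, Cd163, Alb and Ttr) and the 5 genes most like the members. Il6, Il1a, Il1b, Marco, S100a8, S100a9, Ngp, Camp, Mpo, Elane, Adipoq, Plin1, Mt1, Mt2, Lrg1, Fgl1, Fgb, Lbp, Serpina3n, C3 and Cfb were named after their values were seen. So were Ltf, Csf3r, Apom and Igf1. Each library is 1 animal, and replicates of a group differed by more than sampling noise (at least 10.2 in chi-square per gene).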

Additional observations from a re-analysis of the deposited data

Results flagged for a closer look

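In 4 of the 30 sets of a gene and an age, 1 liver lay far from the other 3 by Dixon's test on normalized counts, not on the log2 scale. Chance would give about 1.5 if the sets were independent and normally distributed. The sets share livers and many members are correlated, so whether 4 is more than chance was not tested. Saa1 in young replicate 2 was at 4033 normalized counts against 382 to 729 in the other young livers. Saa1 in aged replicate 1 was at 729 against 222 to 285. Saa2 in young replicate 2 was at 2014 against 124 to 323. Saa3 in middle-aged replicate 3 was at 75.1 against 32.1 to 38.6. The cause was not tested.

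Spike-in RNAs, which the comparisons do not use, took at least 1.59% of the counts of every library.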

How the results depend on the processing

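The sources do not say what a replicate number stands for, and same-numbered livers deviated from their age means with correlations of -0.303 to 0.159, so the numbers were not taken to pair livers. With a replicate block the genes called were 385 in middle-aged against young, 426 in aged against middle-aged and 451 across ages, and the members called were 2 in middle-aged against young and 2 across ages. Genes called in aged against young livers, 484, became 172 (edgeR), 321 (no independent filtering), 290 (2 ages alone), 137 (replicates 1 and 2 alone), 9932 (spike-in scaling) and 237 (without aged replicate 3) to 1291 (without aged replicate 1). In middle-aged against young livers, 727 became 280, 443, 1166, 251 and 11762 in that order, 305 with replicates 3 and 4 alone, and 345 (without middle-aged replicate 2) to 1095 (without aged replicate 1). In aged against middle-aged livers, 117 became 13 (edgeR), 62 (no independent filtering), 34 and 307 (each pair of replicates alone), 4 (spike-in scaling) and 45 (without middle-aged replicate 4) to 198 (without aged replicate 1). Across ages, 865 became 234, 270 (replicates 1 and 2 alone), 10832 (spike-in scaling) and 496 (without young replicate 2) to 1637 (without aged replicate 1).

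Members called in aged against young livers, 3, became 0 (edgeR, and replicates 1 and 2 alone), 5 (replicates 3 and 4 alone, and spike-in scaling) and 1 (without young replicate 2, aged replicate 3 or aged replicate 4) to 5 (without aged replicate 1). In middle-aged against young livers, 4 became 1 (edgeR), 2 (no independent filtering), 6 (spike-in scaling, all higher) and 2 (without young replicate 2 or middle-aged replicate 1, 2 or 4) to 4. Across ages, 5 became 1 (edgeR), 2 (replicates 1 and 2 alone) and 2 (without young replicate 2) to 5. Correlated pairs, 24, became 4 (without young replicate 2) to 26. The median spread of members stayed at 0.36 to 0.47.

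With spike-in scaling the aged against young log2 fold changes became 1.11 for Saa3, 1.13 for Lcn2, 0.60 for Orm1, 0.21 for Orm2, 1.18 for Hp, 1.05 for Hpx, 0.997 for Apcs and 0.52 for Lifr. Those in middle-aged livers became 1.32 for Saa3, 0.77 for Lcn2, 0.97 for Orm1, 0.85 for Orm2, 1.27 for Hp, 1.29 for Hpx, 0.96 for Apcs, 0.54 for Cebpd, 1.11 for Fgg, 0.83 for Saa4 and 0.75 for Lifr. Other turns of sign in aged livers were Saa3 at 0.62 and Hp at 0.14 (replicates 1 and 2 alone), and Lcn2 at 0.21 and Apcs at 0.22 (replicates 3 and 4 alone). Leaving out single livers, Saa3 ranged from -0.45 to 0.20, Lcn2 from -0.63 to 0.38 and Hp from -0.30 to 0.0997 in aged livers, and Saa3 from -0.61 to 0.0781 in middle-aged livers. Saa1 and Saa2 had no adjusted p in some fits that left out a young liver. The cause of these changes was not tested.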

Other observations

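Of the 25 other positive acute phase genes, 8 were highest of all 12 livers in young replicate 2 (Fgb, Lbp, Saa4, Lrg1, Fgl1, Serpina3n, Mt1 and Mt2) and 2 were lowest there, the complement genes C3 and Cfb. C3 stood at 39148 normalized counts in that liver and between 49258 and 88264 in the others. The metallothionein Mt1, which binds zinc and copper, stood at 1868 normalized counts there and between 26.8 and 88.3 in the other 11 livers. Mt2, its neighbor, stood at 38.2 there and between 0 and 2.12 in the others. Lrg1, a secreted leucine-rich glycoprotein, stood at 5336 in young replicate 2, 4615 in aged replicate 1 and 4047 in aged replicate 2, and between 1892 and 3009 in the others. Fgl1, a secreted fibrinogen-like protein, stood at 3747 in young replicate 2 and between 1240 and 2631 in the others.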
